A study of Mus musculus with 4 samples.

Results

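The genes described here encode the arm of the mTORC1 pathway that senses amino acids: Castor1, Sesn1, Sesn2, Sesn3, Depdc5, Nprl2, Nprl3, Tsc1, Mtor and Rptor. ATAC-Seq had been used to ask how loss of Cpt1a, an enzyme of fatty acid oxidation, changed chromatin accessibility in hematopoietic stem cells. In this assay a transposase cuts open DNA, and stretches with many cuts are listed as peaks. Bone marrow cells labelled as long-term HSCs, which the study's text calls HSPCs, came from 2 control libraries (Cpt1a fl/fl, labelled WT) and 2 KO libraries (Cpt1a Δ/Δ, from the floxed line and Vav1-Cre+, so that the deletion covers the whole hematopoietic system and not stem cells alone). Both genotypes shared the C57BL/6, CD45.2 background, and adult mice of both sexes were used unless the methods said otherwise. The labels do not say whether the 2 libraries of a genotype came from separate mice. Peaks lying in one of these genes or within 5000 bp of it were merged across the libraries where they shared at least 1 bp. This gave 305 regions of the 337776 in the genome (autosomes and X), and 116 of the 305 held a peak in at least 2 libraries while 189 were listed in 1 library only. Castor1 was chosen by the contrast of control with KO: a region in the gene had a −log10 q of 5 or more in both KO libraries and no peak in either control. All control and KO values below are therefore descriptions, with no test.

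mTORC1 is a kinase complex, built on the kinase mTOR (Mtor) and its substrate-binding subunit Raptor (Rptor), that drives protein synthesis and growth when amino acids and growth factors are present. CASTOR1 binds arginine, and the sestrins (SESN1, SESN2 and SESN3) include leucine sensors that also respond to stress. When the amino acid is lacking, these proteins hold back GATOR2, so that GATOR1, a complex of DEPDC5, NPRL2 and NPRL3, switches off the Rag GTPases that bring mTORC1 to the lysosome. TSC1 belongs to a second brake, which acts on the GTPase Rheb. In blood stem cells, restrained mTORC1 activity is known to go with quiescence.

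The sequence just before the start site is shown for Castor1, for the sestrins Sesn2 and Sesn3 and for the GATOR1 genes Depdc5 and Nprl2, which are sensors and members of GATOR1 whose highest summit fell within the bases printed in every library. Each run is the 200 bases before the start, 5′ to 3′ on the strand of the gene, from RefSeq (GRCm38.p6, the assembly behind mm10). Capitals run from the first to the last of the 4 libraries' highest summits.
Castor1: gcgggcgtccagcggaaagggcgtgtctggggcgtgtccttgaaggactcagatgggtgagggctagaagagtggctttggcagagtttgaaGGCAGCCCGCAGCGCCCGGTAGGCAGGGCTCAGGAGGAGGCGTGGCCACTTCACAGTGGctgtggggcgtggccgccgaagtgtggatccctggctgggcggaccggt
Sesn2: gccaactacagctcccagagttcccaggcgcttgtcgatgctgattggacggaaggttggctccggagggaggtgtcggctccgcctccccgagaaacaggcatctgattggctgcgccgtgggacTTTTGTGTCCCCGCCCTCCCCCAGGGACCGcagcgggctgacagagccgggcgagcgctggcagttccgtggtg
Sesn3: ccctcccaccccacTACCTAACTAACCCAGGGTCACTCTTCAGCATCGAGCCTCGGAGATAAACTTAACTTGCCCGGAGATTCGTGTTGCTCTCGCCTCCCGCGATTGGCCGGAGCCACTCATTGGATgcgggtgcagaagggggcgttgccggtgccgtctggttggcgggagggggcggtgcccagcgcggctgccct
Depdc5: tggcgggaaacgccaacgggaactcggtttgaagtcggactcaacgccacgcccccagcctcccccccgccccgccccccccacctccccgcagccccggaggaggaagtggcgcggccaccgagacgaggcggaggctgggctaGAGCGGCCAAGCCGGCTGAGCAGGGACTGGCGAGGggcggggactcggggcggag
Nprl2: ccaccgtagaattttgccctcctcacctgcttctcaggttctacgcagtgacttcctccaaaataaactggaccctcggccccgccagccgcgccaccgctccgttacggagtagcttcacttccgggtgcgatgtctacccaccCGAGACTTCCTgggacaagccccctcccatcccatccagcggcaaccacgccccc
In Castor1 (chromosome 11, 4218025 to 4218224) the 4 highest summits lay from 108 to 50 bp before the start, a spread of 58 bp over the libraries. The spread was 29 bp in Sesn2 (chromosome 4, 132510457 to 132510656, minus strand), 34 bp in Depdc5 (chromosome 5, 32863521 to 32863720) and 10 bp in Nprl2 (chromosome 9, 107542009 to 107542208). It was wider in Sesn3 (chromosome 9, 14276101 to 14276300), at 113 bp. All 10 genes had an entry in the RefSeq table of start windows, which run from 250 bases before to 50 after the start, and Sesn1 had 2 start sites, giving 11 windows. The windows were rich in CpG, with 13 (Rptor) to 31 (the second start of Sesn1) CpG in 300 bases against a median of 7 over all 32851 windows. Their GC content ran from 41.7% (Rptor) to 71.0% (the second start of Sesn1) against a median of 52.7%. On either strand, GGAA, the core of ETS family sites, was found in 10 of the 11 windows and in 96.0% of all windows. CCCTC, the letters for which CTCF is named, was found in 9 of 11 and in 66.0% of all. AGATAA, the core that GATA factors read, was in the windows of Sesn3 and Tsc1 (11.2% of all windows), and TGTGGT, a RUNX core, was in that of Sesn3 only (16.8% of all). Neither CACGTG, the E-box core read by TFEB, TFE3 and Myc (7.15% of all windows), nor TGACGTCA, the cAMP response element (1.79%), was found in the 11 windows. None of these letter strings contains another, and a match is a description of the sequence only.

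The deposited lists gave, for each summit, a fold over the local background of its own library. Regions were compared by rank, the percentile of the highest fold of the region among all peak intervals of that library, where 100 is the strongest. The fold and the −log10 p together also gave back the pileup at the summit, a whole number, for all 1047018 summits used, and the genome-wide background of each library. The units of the pileup are called fragments here, though the lists do not say whether whole fragments or extended reads were counted. The background was 2.08 fragments in control 1, 2.37 in control 2, 2.07 in KO 1 and 1.46 in KO 2. Taking it as a measure of relative depth, KO 2 had 61.4% of the depth of control 2, the deepest library, and the other libraries had 87.6% and 87.2%. The pileup divided by this background is called height here, and its 95% Poisson intervals cover counting error only. At the genome-wide background, the lowest pileup listed was 6, 7, 6 and 5 fragments in control 1, control 2, KO 1 and KO 2, or heights of 2.89, 2.95, 2.90 and 3.43. The label of the cells was checked with marker genes, by a peak of −log10 q 5 or more within 500 bp of the start. Of 8 stem and progenitor genes with a start in the table, 6, 8, 8 and 6 had such a peak in the same order of libraries, and Kit, Procr, Hlf, Gata2 and Meis1 had it in all 4. Slamf1 lacked it in control 1, Mecom in KO 2 and Fgd5 in both control 1 and KO 2. Genes of T cells (0 of 3) and erythroid cells (0 of 3) had none in any library, and of 3 B cell genes Ebf1 had it in all 4 libraries and Cd79a in KO 1. Of 3 neutrophil and macrophage genes, Ltf and Camp had such a peak in both controls and KO 1 but not in KO 2, and so did Pdx1, a pancreas gene, among 3 genes of tissues not found in marrow. The part of other cells in the values below was not tested.

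Castor1 (Gene ID 71962, chromosome 11, 4218166 to 4222409, plus strand, mm10) is a short gene of 4244 bp, and its window held 5 regions, all in at least 2 libraries. The annotation used gives the span of a gene and no exons, so positions are given as distances from the start site. The start site lay under region 2 (4217873 to 4218664), which was listed in every library. Its fold was 9.90 in control 1, 10.2 in control 2, 11.7 in KO 1 and 9.33 in KO 2, and its rank was 89.0 and 88.5 against 92.9 and 89.6. Both KO ranks were thus above both control ranks, but the mean difference of 2.52 percentile points was smaller than the gap of 3.32 between the KO libraries. By height the libraries did not separate: 59.2 (95% interval 49.2 to 70.7) and 57.3 (48.1 to 67.8) in the controls, 58.5 (48.5 to 69.9) and 44.7 (34.5 to 56.9) in KO. The local background around this summit, in multiples of the genome-wide one, was 5.55 and 5.24 in the controls and 4.56 and 4.17 in KO. It was lower in both KO libraries, so the same height gives a higher fold there. Over all start-site regions of the genome in all 4 libraries, the median log2 ratio of this background, KO over control, was -0.10.

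**Figure D1:**
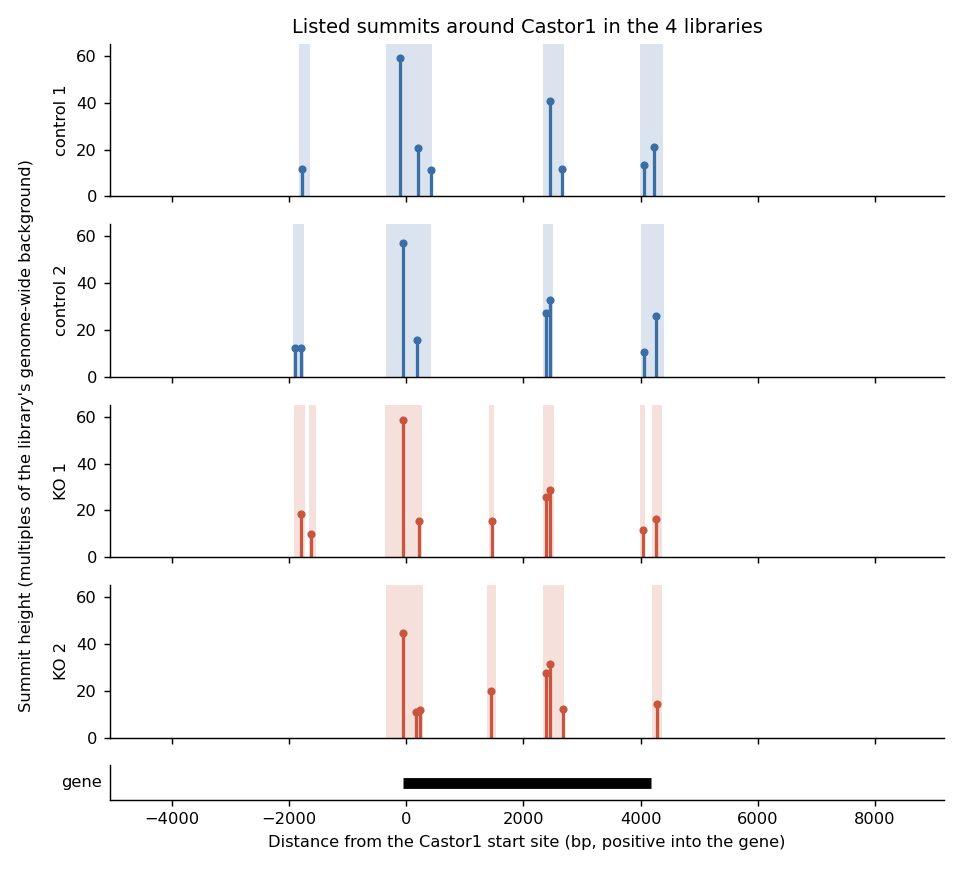
Height of each listed summit (vertical axis, multiples of the genome-wide background of the library) by distance from the Castor1 start site (horizontal axis, bp) in the 4 libraries, with the listed intervals shaded and the gene drawn as a bar. Summits lie near the start, inside the gene and near its end in every library, and those at 1457 bp in KO 1 and 1453 bp in KO 2 have no counterpart in the controls.

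Region 3 of Castor1 (4219608 to 4219751, 144 bp wide, inside the gene) was the region by which the gene was chosen. KO 1 had a fold of 3.13 and a −log10 q of 6.25, with a pileup of 32 fragments and a height of 15.5 (95% interval 10.6 to 21.8). KO 2 had a fold of 4.19 and a −log10 q of 8.74, with a pileup of 29 and a height of 19.9 (13.3 to 28.6). The summits of the 2 libraries lay 1457 and 1453 bp past the start. The nearest summit lay 995 bp from the middle of the region in control 1 and 928 bp in control 2. With the local background at those nearest summits, 11.6 and 12.4 fragments, a summit in the controls would have been listed from a pileup of 20 and 21, or heights of 9.63 and 8.85. These limits take the background from a summit about 1 kb away and assume that no control peak was lost to the caller's minimum length or to the removal of rows after calling, neither of which is given in the sources used here. By fold, region 3 was not a strong peak: its ranks of 44.0 and 67.1 placed it among the middle ranks of the KO lists. Of the 4778 regions only in KO across the genome, 738 had a higher rank in the weaker of the KO libraries, and 412 of 21631 protein-coding genes had such a region in or within 5000 bp. By −log10 q, 2 of the 4778 were higher in the weaker library. Ranked by −log10 p within its library, region 3 stood at 70.2 in KO 1, the lower of its KO ranks. The genome held 9 regions only in KO that reached a −log10 q of 5 in KO 1 and KO 2 alike (0.00654% of the 137553 regions in at least 2 libraries), and region 3 was the only such region at the 10 genes, which is what the choice fixed. The mirror count, regions only in control that reached this value in control 1 and control 2 alike, was 89.

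The other 3 regions of Castor1 showed no shift shared by all. Region 1 (4216295 to 4216689, upstream) was ranked at 4.71 and 17.8 in the controls and 65.8 in KO 1, and KO 2 had no peak there. Region 4 (4220558 to 4220920, inside the gene) had ranks of 80.7 and 73.3 in the controls and 78.0 and 82.1 in KO, which overlapped. Its heights were 40.9 and 32.9 in the controls and 28.5 and 31.6 in KO, and their 95% intervals overlapped, from 26.0 to 50.6 and from 21.7 to 42.2. Region 5 (4222218 to 4222633), over the end of the gene, had ranks of 62.7 and 68.8 against 61.4 and 51.4, lower in both KO libraries. The drop in its mean rank, a difference of -9.36 points, was within the gap of 10.0 between the KO libraries, and its heights were 21.2 and 26.1 in the controls and 16.4 and 14.4 in KO. Within the same gene, then, 1 region was listed in KO alone, 1 was ranked higher and 1 lower in KO, and the remaining 2 were mixed. The nearest regions outside the window in at least 2 libraries lay 8177 bp before and 7511 bp after the gene. Over all 10 genes, the regions on either side of the 5000 bp limit were region 1 of Nprl3, 4980 bp from the gene with ranks of 87.6, 86.7, 89.4 and 88.3, and a region 5292 bp past Rptor with ranks of 85.1, 88.1, 89.1 and 84.1, in the order control 1, control 2, KO 1 and KO 2 that is used from here on.

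Every one of the 11 start sites lay under a region that all 4 libraries listed, and these were among the strongest peaks of each list. The share of all start sites of the genome under such a region was not computed, so this count does not set the genes apart. Their median rank was 96.9, 95.6, 96.7 and 97.2. Castor1 had the lowest mean rank of them, 90.0, and Tsc1 the highest, 99.4, while the median start-site region of the genome in all 4 libraries had a mean rank of 93.8. Both KO ranks were above both control ranks in 6 of the 11 and below them in 0. Among the 11761 such regions of the genome the shares were 28.0% and 10.4%. By height, 2 of the 11 were higher (18.2%) and 3 lower (27.3%) in both KO libraries, against 9.86% and 26.9% of start-site regions of the genome. The median log2 height ratio, KO over control, was -0.05 against -0.08 for those regions of the genome.

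**Figure D2:**
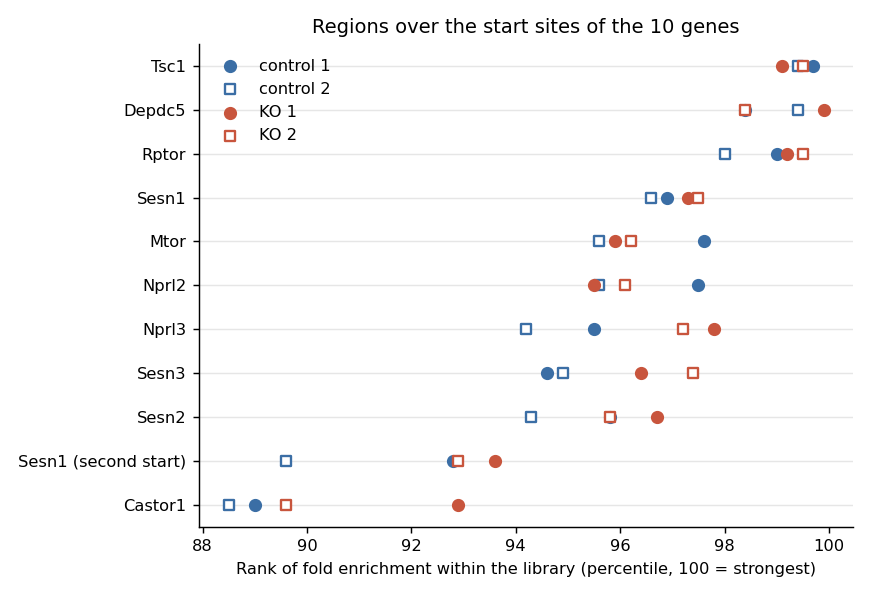
Rank of the fold within its library (horizontal axis, percentile) for the regions over the 11 start sites, 1 row per start, with a point for each of the 4 libraries. All points lie above rank 88, and Castor1 has the lowest mean rank. The points of the genotypes are apart in 6 rows and interleaved in Tsc1, Depdc5, Mtor, Nprl2 and Sesn2. In Sesn3, Nprl3 and the first start of Sesn1 the mean difference is larger than the gap within a genotype.

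Among the sensors, the start of Sesn3 (chromosome 9, region 14275871 to 14276814) was ranked at 94.6, 94.9, 96.4 and 97.4. Both KO libraries were higher, and the mean difference of 2.12 points was larger than the gap of 1.03 within a genotype. Its heights, 121, 118, 126 and 133, were in the same order by genotype, but their 95% intervals overlapped (105 to 137 in the controls and 111 to 153 in KO). Sesn1 (chromosome 10) had 2 start regions, and the upstream of them (41809538 to 41810838), which also covers the start of its neighbor Cep57l1, had ranks of 96.9, 96.6, 97.3 and 97.5. The region over the second start (41887024 to 41887877) had ranks of 92.8, 89.6, 93.6 and 92.9. Both Sesn1 regions were ranked higher in both KO libraries, the first by 0.634 points with a gap of 0.378 within a genotype, the other by 2.04 with a gap of 3.21. By height neither separated the genotypes, with 110, 97.4, 99.1 and 92.7 at the first and 36.1, 33.7, 39.1 and 33.0 at the other. The start of Sesn2 (chromosome 4, 132509648 to 132510802), the sestrin best known as a leucine sensor, had ranks of 95.8, 94.3, 96.7 and 95.8, which overlapped.

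Of the GATOR1 genes, Nprl3 was ranked higher at its start in both KO libraries. Its region (chromosome 11, 32267197 to 32267972) had ranks of 95.5, 94.2, 97.8 and 97.2 and heights of 60.2, 48.9, 65.2 and 61.1. The mean rank difference of 2.65 points was larger than the gap of 1.35 within a genotype, while the 95% intervals of the heights overlapped. Depdc5 (chromosome 5, 32863260 to 32864227) had ranks of 98.4, 99.4, 99.9 and 98.4, and Nprl2 (chromosome 9, 107541505 to 107542309) had 97.5, 95.6, 95.5 and 96.1. Neither separated the genotypes by rank, and the region at Nprl2 also covers the start of Cyb561d2, so the value cannot be given to either gene. By height the Nprl2 region was lower in both KO libraries, at 89.1, 65.8, 62.3 and 60.5, with a mean difference smaller than the gap between the controls.

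For the complex itself, the start of Mtor (chromosome 4, 148448211 to 148449257) had ranks of 97.6, 95.6, 95.9 and 96.2, and the KO values lay between those of the controls. That of Rptor (chromosome 11, 119602465 to 119603637) had ranks of 99.0, 98.0, 99.2 and 99.5, higher in both KO libraries by a mean of 0.852 points, within the gap of 1.03 between the controls. The start of Tsc1 (chromosome 2, 28640602 to 28641839) had ranks of 99.7, 99.4, 99.1 and 99.5. Its heights were 129, 110, 93.8 and 94.8, lower in both KO libraries, as were those of Mtor at 127, 101, 92.8 and 89.3. At these start sites rank and height thus gave different orders of the libraries.

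Over all 116 regions in at least 2 libraries, the 10 genes followed the genome in presence. A peak was listed in all 4 libraries in 65 (56.0%, against 58.4% of the 137553 regions of the genome), only in KO in 4 (3.45% against 3.47%) and only in control in 7 (6.03% against 6.05%). The remaining 40 were listed in another mix of libraries. Of the 18 regions in exactly 3 libraries, 9 lacked a peak in KO 2 (50.0%, against 41.2% in the genome), 6 in control 1 (33.3% against 16.3%), 2 in control 2 (11.1% against 17.3%) and 1 in KO 1 (5.56% against 25.2%). By position, 11 of the 65 regions in all 4 libraries lay over a start site, 43 inside a gene, 4 upstream and 7 downstream. The short genes were the most densely covered: Castor1 had 21.1 regions in all 4 libraries per 100 kb of window, Sesn2 18.1, Nprl2 14.8 and Nprl3 13.1, against 8.34 in Sesn1, 7.50 in Rptor, 6.65 in Tsc1, 4.27 in Depdc5, 4.20 in Mtor and 3.34 in Sesn3. Every window holds a start-site region, which weighs more in a short window: Castor1 had 3 regions in 14244 bp and Nprl2 2 in 13530 bp. Some of the regions cover the start of a neighbor (Zmynd10 at Nprl2, Mpg at Nprl3). The density was not computed for other genes, so it is not a trait of these.

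Among the 65 regions in all 4 libraries, both KO ranks were above both control ranks in 11 (16.9%, against 22.2% of the 80271 such regions of the genome) and below them in 14 (21.5% against 15.1%). More were lower than higher, the opposite of the genome, but this balance turned with lists of equal length (20 higher, 10 lower), with the 100000 strongest summits (14 and 8), without control 1 (26 and 21) and without KO 2 (34 and 26). More stayed lower with a −log10 q of at least 5 (4 higher, 14 lower), rank by −log10 p (8 and 16) and rank over regions in all 4 libraries (12 and 17). The same held with a flank of 1000 bp (8 and 13), without control 2 (17 and 24) and without KO 1 (20 and 29). The shares of the genome were not computed under these settings. In 19 of the 65 the mean difference in rank was larger than the larger gap within a genotype (29.2%, against 24.1% in the genome). By height, 5 were higher in both KO libraries (7.69% against 14.1%) and 26 lower (40.0% against 26.1%), and the median log2 height ratio was -0.18 against -0.07 in the genome. The regions ranked lower all lay away from the start sites, where 5 of 54 regions were ranked higher (9.26% against 21.2% of 68510 such regions of the genome) and 14 lower (25.9% against 16.0%). By height, 23 of the 26 lower regions lay there and 3 over the starts of Mtor, Nprl2 and Tsc1. The 23 were 42.6% of the 54, against 26.0% of such regions of the genome. The median rank of these 54 was 80.1, 77.9, 77.7 and 75.0.

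**Figure D3:**
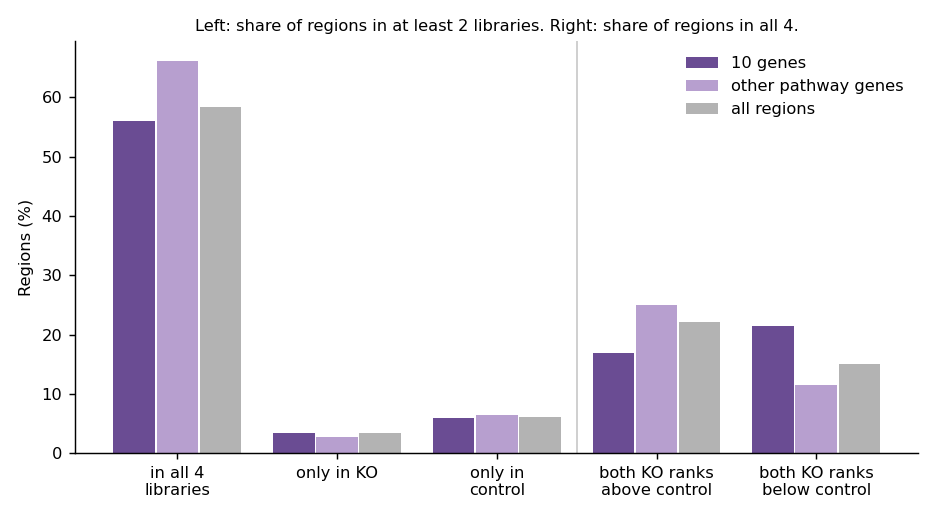
Share of regions (vertical axis, percent) in all 4 libraries, only in KO and only in control, among regions in at least 2 libraries, and share with both KO ranks above or below both control ranks, among regions in all 4 libraries. Bars stand for the 10 genes, the other genes of the pathway and all regions of the genome, and the shares only in KO are 3.45%, 2.82% and 3.47%.

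Rptor, the longest gene (296687 bp), held 137 of the 305 regions and 23 of the 65 in all 4 libraries, so it carries much of these counts. Of its 23, 1 was ranked higher (4.35%) and 7 lower (30.4%) in both KO libraries. Without Rptor the other 9 genes had 10 ranked higher (23.8%) and 7 lower (16.7%) of 42, and the balance by rank turned to that of the genome. By height Rptor had 1 higher and 10 lower, of the 5 and 26 over all 10 genes. Most of the regions lower by height thus lay at the other genes. The 7 lower regions of Rptor all lay inside the gene, from 58675 to 223236 bp past the start. The strongest of them, region 33 (119670737 to 119671519), named after its values were seen, had folds of 15.1, 12.0, 9.25 and 6.31 and ranks of 95.7, 91.7, 89.0 and 80.8. Its heights were 27.9 (95% interval 21.2 to 36.1), 21.9 (16.4 to 28.7), 14.5 (9.78 to 20.7) and 11.7 (6.80 to 18.7). Both KO libraries were below both controls, with a mean rank difference of -8.78 and a gap of 8.15 within a genotype. The intervals of control 2 and KO 1 overlapped.

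**Figure D4:**
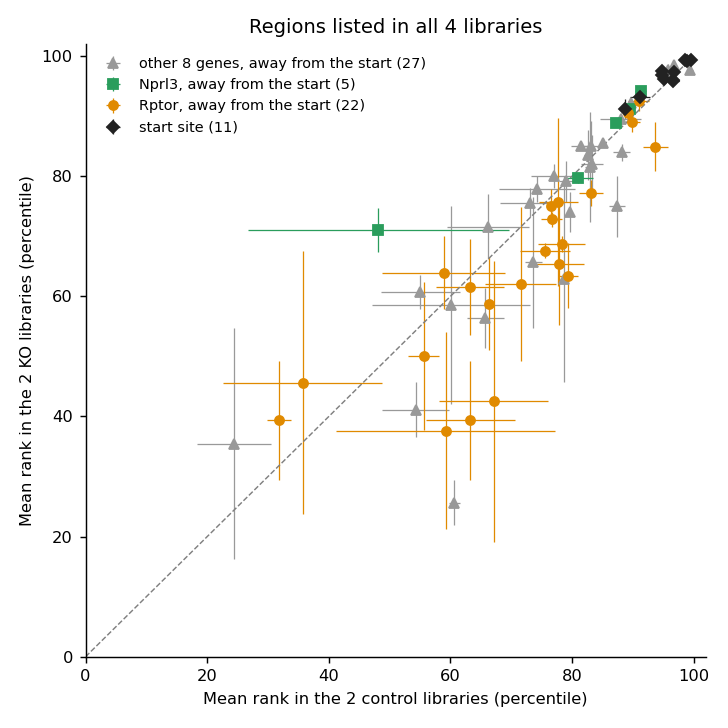
Mean rank in the 2 KO libraries (vertical axis, percentile) against that in the 2 control libraries (horizontal axis) for the 65 regions in all 4 libraries, with bars from the lower to the higher library of each genotype and the line of equal ranks. Start sites sit at the top right near the line, most Rptor regions lie under the line, Nprl3 regions lie near or above it, and the bars are long for weak regions.

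At the other 9 genes the regions that separated the genotypes by rank were spread over 8 genes. Region 6 of Tsc1 (28654252 to 28654745, inside the gene), also named after its values were seen, had ranks of 88.7, 86.1, 80.1 and 69.8, lower in both KO libraries by more than the gap within a genotype (a difference of -12.4 with a gap of 10.4). Region 20 of Depdc5 (32966082 to 32966447) had ranks of 61.5, 59.8, 21.9 and 29.4, the widest separation of the 65 relative to the gap within a genotype (a difference of -35.0 with a gap of 7.53). It rests on few fragments, with pileups of 11, 13, 7 and 6 and heights whose 95% intervals overlapped. Nprl3, whose introns are known to hold enhancers of the neighboring alpha-globin genes, had 3 of its 6 regions ranked higher in both KO libraries and 0 lower. Besides its start these were region 6 inside the gene (32238358 to 32238862), with ranks of 90.4, 92.2, 94.0 and 94.2, and region 1 at the start of Mpg, with the ranks given above. The genes with 0 regions ranked higher in KO were Depdc5 (3 lower), Tsc1 (1 lower) and Nprl2 (0 lower), and those with 0 lower were Sesn2 (2 higher), Sesn3 (1 higher), Nprl3 and Nprl2. Sesn1 had 2 higher and 1 lower, and Mtor and Castor1 had 1 of each.

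The 3 regions of highest mean rank away from the start sites were listed in every library. Region 27 of Depdc5 (32997587 to 32998205), 3354 bp past the end of the gene, had ranks of 99.8, 98.9, 98.5 and 97.0 and heights of 71.7, 50.2, 47.8 and 41.9. Both were lower in KO, with a mean rank difference of -1.60 and a gap of 1.55 within a genotype. The 95% intervals of the heights overlapped between control 2 (41.6 to 60.0) and KO 1 (38.9 to 58.2). Region 8 of Sesn2 (132515272 to 132516026), 4816 bp upstream and over the tRNA gene n-TAagc8, had ranks of 97.1, 96.3, 97.8 and 99.1, higher in both KO libraries with a mean rank difference of 1.78 and a gap of 1.38. Its heights of 99.7, 87.7, 86.0 and 104 did not separate the genotypes. Region 46 of Mtor (148557937 to 148559052) covers the start of the neighbor Exosc10, a subunit of the RNA exosome, and its ranks of 96.8, 94.7, 98.7 and 96.7 overlapped.

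Besides region 3 of Castor1, 10 regions had a peak in both libraries of 1 genotype and in none of the other. Those only in KO were region 11 of Sesn1 (41838939 to 41839173, ranks 49.3 and 45.7), region 37 of Mtor (148536613 to 148536762, ranks 15.7 and 12.0) and region 112 of Rptor (ranks 21.9 and 53.5). Those only in control were region 4 of Sesn3 (ranks 37.2 and 22.6), region 32 of Mtor (9.86 and 43.7), region 111 of Rptor (45.7 and 33.8), region 19 of Depdc5 (48.8 and 50.8), regions 7 (41.1 and 39.5) and 14 (32.6 and 25.8) of Nprl3 and region 11 of Tsc1 (19.6 and 11.3). Their pileups were 5 to 18 fragments over local backgrounds of 1.46 to 6.0 fragments, against 32 and 29 over 9.55 and 6.15 at region 3 of Castor1. By rank of the fold, all 11 were weak and region 3 was not the strongest: its lower rank was 44.0, against 45.7 at region 11 of Sesn1 and 48.8 at region 19 of Depdc5. Ranked by −log10 p, region 3 was the strongest, with a lower rank of 70.2 against 41.6 and 44.2 at those regions. Region 3 was chosen by its −log10 q, so this order is not independent of the choice. The 11 were also narrow, with a median width of 151 bp, against 557 bp for the 65 regions in all 4 libraries. The same held in the genome, with 179 and 526 bp.

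How far absence in the other genotype could be seen depended on depth. In region 4 of Sesn3, region 32 of Mtor and region 11 of Tsc1, the lowest control height was 3.37, 2.89 and 2.95. These values were below the 3.43 from which KO 2 would list a summit. A difference of that control from KO 2 was thus not detectable at this depth. The height in the other control was 3.85, 4.22 and 3.37, below 3.43 only in region 11 of Tsc1. In the same regions KO 1 would have listed a summit from 2.9, and of the lowest control heights only the 2.89 of region 32 of Mtor was below that. The 95% intervals of the lowest control heights all reached below 2.9, with lower bounds of 1.46, 1.06 and 1.19. In the other 8 regions the lowest height was above the limit of the libraries without a peak. In 7 of these 8 the 95% interval of the lowest height reached below that limit, as in region 14 of Nprl3, with heights of 8.67 and 7.59 (lower bound 4.50) in the controls against limits of 6.28 and 6.87 in KO. In region 3 of Castor1 the lower bound was 10.6 against limits of 9.63 and 8.85, but this region was picked for being significant in both KO libraries and unlisted in the controls, so its clearance follows from the choice and does not set it apart from the other 10.

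**Figure D5:**
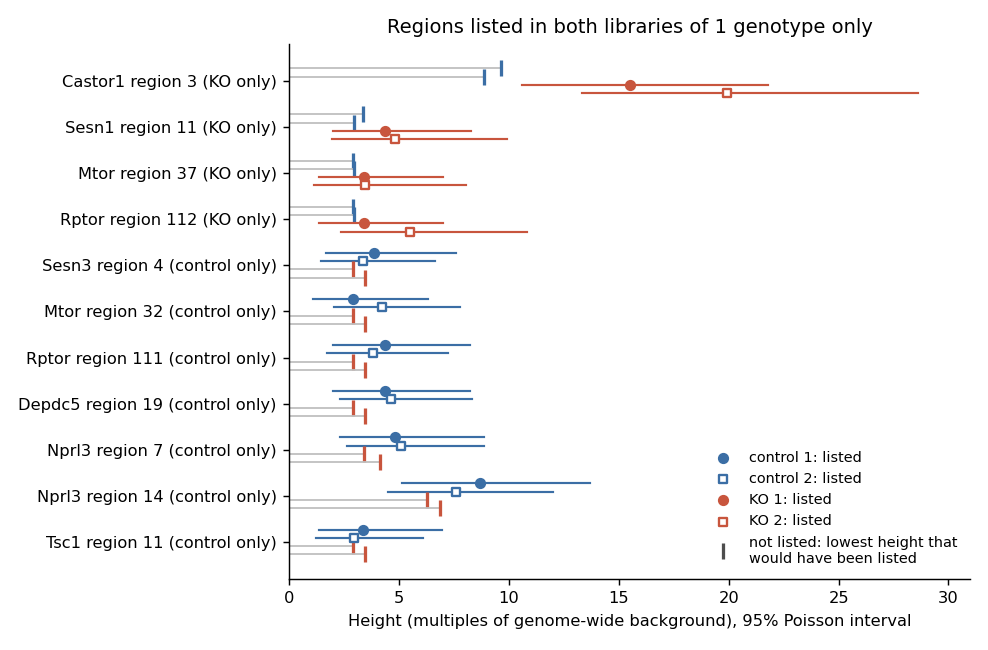
Height (horizontal axis, multiples of the genome-wide background) of the 11 regions listed in both libraries of 1 genotype only, with 95% Poisson intervals as bars. Ticks at the end of gray lines mark the lowest height that would have been listed in each library without a peak, and the intervals lie wholly past these ticks in the row of Castor1 region 3, which was chosen on the same values, and at least 1 interval reaches below a tick in each of the other 10.

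The other genes of the pathway were taken from a list of 48 genes, of which 46 were matched by symbol (not Kics2 and Samtor). Of the 35 with a start site in the table, 35 had a region there in all 4 libraries. The matching share over all start sites of the genome was not computed. The windows of the 46 genes held 248 regions in at least 2 libraries, none shared with the 10 genes, and 164 of these were in all 4 (66.1%). Those only in KO numbered 7 (2.82%) at 5 genes, and those only in control 16 (6.45%) at 12 genes, which was near the shares of the genome. Of the 164, 41 were ranked higher in both KO libraries (25.0%) and 19 lower (11.6%), and the median log2 height ratio was -0.08. None of the 7 reached a −log10 q of 5 in both KO libraries.

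By role, of the 22 regions at GATOR2 genes 1 was specific to KO (4.55%, against 3.47% in the genome) and 5 to control (22.7%, against 6.05% in the genome), and 3 of these 5 were at a single gene, Wdr59. The counts were 3 and 3 of 31 (9.68% each) at the folliculin complex, which acts on the Rag GTPases, and 1 and 1 of 18 (5.56% each) at the Ragulator, which anchors the Rags to the lysosome. The Rag GTPases themselves (14 regions, 13 of them in all 4 libraries) and the other sensors (20 regions, among them Castor2, the paralog of Castor1, with 8) had 0 of either kind. KICSTOR, the anchor of GATOR1, had 2 of 13 only in control (15.4%), and amino acid stress and uptake had 3 of 26 (11.5%). Both had 0 only in KO, and the remaining groups had at most 1 region of each kind. These counts are too small to set a group apart from the genome shares of 3.47% and 6.05%. Taking 1 region per gene, the strongest only in KO by the lower of the 2 ranks were at Fnip2, a folliculin partner (ranks 49.3 and 57.9), Tsc2, which encodes the GTPase-activating subunit of the TSC complex (44.2 and 34.6), and Eif4ebp2, a repressor of translation that mTORC1 phosphorylates (31.7 and 54.0). On the same terms, the strongest only in control were at Eif2ak4, the kinase GCN2 that senses uncharged tRNA (56.5 and 50.8), Wdr59 of GATOR2 (43.2 and 53.4), Itfg2 of KICSTOR, which places GATOR1 on the lysosome (45.1 and 39.7), Sec13 of GATOR2 (53.3 and 33.8) and Tfe3, a transcription factor of lysosomal genes (17.3 and 29.2). Their pileups were low in both genotypes, from 8 to 22 fragments at the 3 regions only in KO and from 9 to 25 at the 5 only in control.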

How the data were processed

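The 4 peak lists were analyzed, from 2 control and 2 KO ATAC-Seq libraries. Tools and build (Bowtie2, MACS2, mm10) are credited to the submitters' processing notes, and the authors called peaks per library. The authors' lists give a score, a fold (the ratio of summit pileup to local background) and, for each summit, −log10 p and q values. The score was not used. Without read counts, the study's comparison with DiffBind and edgeR was not repeated. Since fold = (pileup + 1) / (background + 1) and −log10 p is a Poisson tail, both unknowns were solved for each summit (tolerance 0.001, 100% whole). The lists held 240940 to 277594 summits. Analysis used Python 3.11.15, numpy 2.4.6, pandas 2.3.3, scipy 1.17.1 and matplotlib 3.10.9, and was tested on simulated lists.

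The genes, the pathway and marker lists were chosen with earlier results of these data known. Each start-site region, each region only in 1 genotype, the 3 others of highest mean rank and at most 8 pathway genes are named. No test was run, as 2 libraries against 2 cannot give a two-sided exact permutation p below 0.333. Alternatives were stricter and equal-length lists, flanks of 1000 or 0 bp, coverage, summit windows, other ranks and leaving out each library. Heights and a common limit of detection were added after seeing the data.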

Additional observations from a re-analysis of the deposited data

How the results depend on the processing

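With a −log10 q of at least 5 there were 1 region only in KO, 3 only in control, 38 in all 4 libraries and 4 ranked higher in KO. With the 100000 strongest summits these were 1, 1 and 39, with 8 ranked lower. Lists of equal length gave 20 ranked higher, and coverage of 0.5 gave 11 only in control and 34 in all 4. By height 5 were higher and 26 lower. Leaving out each library gave 5 to 50 regions only in KO, 9 to 62 only in control, 66 to 75 in all remaining libraries, 17 to 34 ranked higher and 21 to 29 lower, since fewer libraries must then agree. The other counts stayed within 1.5 times the values reported. Median start-site ranks by −log10 p were 97.8, 97.1, 98.3 and 97.6. No paired analysis was possible because no test was run and the shared replicate numbers mark no common animal or day in the labels. Heights rest on counts without replicate error, local backgrounds in libraries without a peak were read from the nearest summit, and rows had been removed from the lists after calling by a filter not given in the sources used here.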
